A study of Homo sapiens with 6 samples.

Results

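The genes described here encode voltage-gated sodium channel subunits and the sodium leak channel. The list held 8 genes: the alpha subunit genes SCN1A, SCN2A, SCN3A, SCN8A and SCN9A, the beta subunit genes SCN2B and SCN3B, and NALCN. They were found by matching the Ensembl identifiers of the authors' deposited DESeq2 table, without their versions, to gene symbols. Of the 8 genes, 5 were among the 13885 genes of the table: SCN2A, SCN3A, SCN8A, SCN9A and SCN3B. SCN1A, SCN2B and NALCN had no row and were not analysed here. The members were chosen by gene family with the fold changes and adjusted p-values of this same table known, so their values are a description, and the p-values beside them are those the authors deposited.

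RNA-seq was made from BE(2)-C cells, a human neuroblastoma line with a wild-type genotype in the labels. Cells of 3 samples were transfected for 24 h with an siRNA that targets PCIF1 (siPcif1), and cells of 3 samples with a scrambled one (siScram). Both groups then spent 4 days in all-trans retinoic acid (ATRA) at 10 µM, renewed daily, and no group went without it. PCIF1 is the enzyme that methylates adenosine at the first transcribed base of capped mRNA. Whether samples within a group were separate cultures is not stated, so the p-values cover just the spread among the samples at hand, which may be technical. A single siRNA product against PCIF1 was the model. Only the authors' comparison was analysed here: per gene a mean normalised count over both groups, a log2 fold change with its standard error (SE) and a Wald test, with no value per library. An adjusted p under 0.05 was counted as a change.

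The header of the table does not say which group is on top of the fold change. The direction, siPcif1 over siScram, was read from PCIF1 itself, which lay at a log2 fold change of -0.82 (SE 0.19) by the authors' deposited table, where the DESeq2 adjusted p was 0.000167. The sign of PCIF1 therefore cannot serve as a check of the knockdown. In the table's name the groups stand in the other order, and by that reading every sign below would turn. PCF11, a factor of transcript cleavage and termination named in the title of the study, did not pass, at 0.35 (SE 0.16, DESeq2 adjusted p = 0.0667) by the authors' deposited table.

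Voltage-gated sodium channels open when the membrane depolarises, let sodium into the cell and start the action potential. The alpha subunit forms the pore and carries the voltage sensors, and the smaller beta subunits, membrane proteins with an immunoglobulin-like domain, set its gating and its place at the cell surface. NALCN conducts a steady sodium leak that holds the resting potential nearer to threshold. Neuroblastoma arises from the sympathetic lineage, whose neurons fire through such channels, and ATRA drives these cells towards a neuronal form.

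Among the alpha subunit genes, SCN2A, SCN8A and SCN3A rose and SCN9A fell, while the beta subunit gene SCN3B rose by less. By the authors' deposited table all 5 members with a row passed, against 34.0% of the 13885 genes. Higher calls numbered 4 by the authors' deposited table, against 16.3% of all genes, and lower calls 1, against 17.7%. Since the members were chosen from this contrast, nothing is read from these counts. Their median log2 fold change by the authors' deposited table was 0.98, and that of all genes 0.01.

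Before the values, RefSeq starts of the members are shown, because PCIF1 acts on the first base of the transcript. RefSeq promoters on GRCh38.p14 were found for 3 of the 5 members, SCN2A with 2 alternative starts; SCN3A and SCN3B had no entry. Each line gives 50 bases before the start and 10 bases from it, 5′ to 3′ on the gene's strand, with the first transcribed base in capitals.
SCN2A, first start (chr2:165239364-165239423, plus strand): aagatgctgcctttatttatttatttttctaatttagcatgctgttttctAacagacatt
SCN2A, second start (chr2:165241010-165241069, plus strand): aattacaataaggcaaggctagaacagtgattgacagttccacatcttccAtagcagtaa
SCN8A (chr12:51591183-51591242, plus strand): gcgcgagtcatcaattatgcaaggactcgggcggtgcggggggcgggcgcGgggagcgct
SCN9A (chr2:166375935-166375994, minus strand): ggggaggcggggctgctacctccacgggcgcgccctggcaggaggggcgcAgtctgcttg

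Both RefSeq starts of SCN2A and that of SCN9A were adenosine, the base PCIF1 can methylate, and that of SCN8A was guanosine. SCN2A was higher and SCN9A lower with adenosine at the RefSeq start, and SCN8A higher with guanosine. Whether the first base has a part in these values was not tested. Adenosine stood first in 45.6% of the 9831 tested genes with a RefSeq promoter. The genes starting with adenosine had a median log2 fold change of 0.02 by the authors' deposited table, and those starting with guanosine -0.01. The 1173 genes starting with cytidine had a median of -0.07 and the 126 starting with thymidine 0.07 by the authors' deposited table. These are annotated starts, and where transcription began in BE(2)-C cells was not measured. The transcripts of GENCODE have 16 start positions for SCN2A, 12 for SCN8A and 11 for SCN9A. Their first bases were not examined here.

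The promoters differed in base composition. Over the 300 bases from 250 before the start, GC content was 84.0% at SCN8A and 73.3% at SCN9A, but 31.7% and 33.3% at the first and second start of SCN2A; the median of the 9831 promoters was 65.3%. The GC box letters GGGCGG, searched on both strands with overlapping matches counted, occurred 10 times at SCN8A, 2 times at SCN9A and 0 times at either start of SCN2A; 70.2% of all promoters held them. The TATA box letters TATAAA, searched likewise over these 300 bases, occurred 2 times at the second start of SCN2A. No match lay inside the printed line of that start. The letters occurred 0 times at the other 3 starts, against 5.35% of all promoters with a match. The retinoid receptor half-site AGGTCA was in none of the 4 stretches of 300 bases and in 9.33% of all promoters on either strand.

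SCN2A, which encodes an alpha subunit of axons in the central nervous system, had the largest increase of the members. It had a mean normalised count of 122 over both groups and a log2 fold change of 1.27 (SE 0.20, 95% interval 0.88 to 1.66) by the authors' deposited table, or 2.41-fold higher, with a DESeq2 adjusted p of 8.7e-09. That value ranked 107 from the highest among the 13885 genes of the authors' deposited table, or 107 from the lowest if the direction is the other one. SCN2A (ENSG00000136531.15) lies on chromosome 2 from 165194993 to 165392310 on the plus strand of GRCh38.

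SCN8A, the main alpha subunit gene of mature nodes of Ranvier, the gaps in myelin where the action potential is renewed, rose to a like degree. Its mean normalised count was 472 and its log2 fold change 1.22 (SE 0.16, 95% interval 0.91 to 1.54), or 2.33-fold higher, by the authors' deposited table, where the DESeq2 adjusted p was 2.89e-12, the smallest of the members. SCN8A (ENSG00000196876.15) lies on chromosome 12 from 51590266 to 51812864 on the plus strand.

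SCN3A, an alpha subunit gene used most in the fetal brain, was next. The authors' deposited table gave it a mean normalised count of 319 and a log2 fold change of 0.98 (SE 0.17, 95% interval 0.65 to 1.32), or 1.98-fold higher, with a DESeq2 adjusted p of 2.48e-07. SCN3A (ENSG00000153253.16) lies on chromosome 2 from 165087522 to 165204067 on the minus strand. The intervals of SCN2A, SCN8A and SCN3A overlap one another; no test between members was made.

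SCN9A, the alpha subunit gene of peripheral sensory and sympathetic neurons, known for its part in pain sensing, was the member that fell. Its mean normalised count of 662 was the highest of the alpha subunit members, and its log2 fold change by the authors' deposited table was -0.51 (SE 0.16, 95% interval -0.81 to -0.21), with a DESeq2 adjusted p of 0.00518. That corresponds to 70.3% of the siScram level from the authors' deposited table, or 1.42-fold that level if the direction is turned. SCN9A (ENSG00000169432.15) lies on chromosome 2 from 166195185 to 166376001 on the minus strand, and its interval lies apart from those of the other 4 members.

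SCN3B, which encodes a beta subunit held to the alpha subunit without a covalent bond, had the highest level and the smallest change. The authors' deposited table gave a mean normalised count of 1172 and a log2 fold change of 0.35 (SE 0.13, 95% interval 0.10 to 0.61), or 1.28-fold higher, with a DESeq2 adjusted p of 0.0241. SCN3B (ENSG00000166257.8) lies on chromosome 11 from 123629187 to 123655244 on the minus strand. Its interval ended below the start of that of SCN3A, the lowest of the alpha subunit members that rose.

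**Figure D1:**
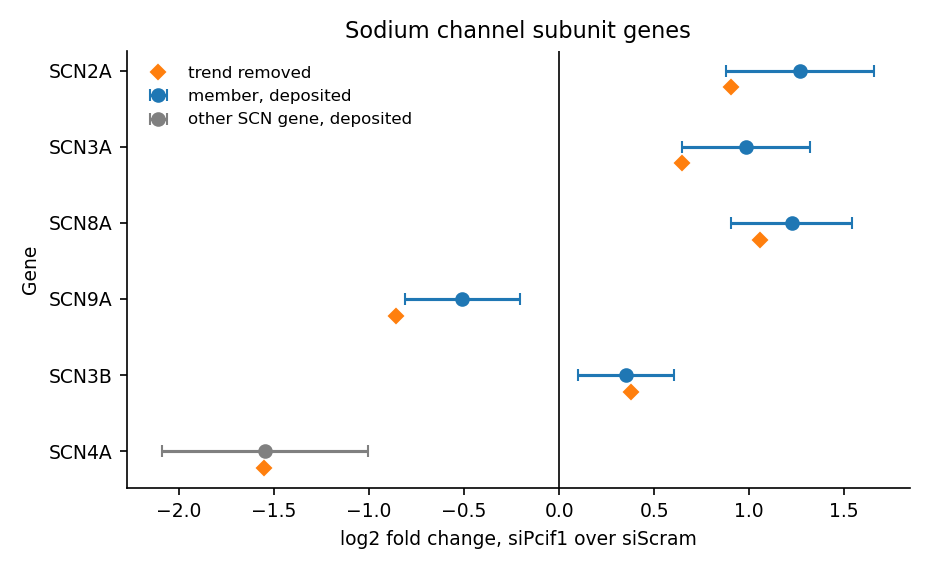
Log2 fold change of siPcif1 over siScram (x axis) for the 5 members and for SCN4A, which is outside the list; circles with bars are the authors' values with 95% intervals from the SE, and diamonds are the values with the trend of GC content, lengths and mean count removed. SCN2A, SCN3A, SCN8A and SCN3B lie above 0 and SCN9A below 0 by both measures.

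The Wald statistics of all genes by the authors' deposited table spread 2.44 times as wide as a normal null, by their robust SD. With the statistics divided by that SD, 0 of the 5 members passed, with adjusted p from the DESeq2 values between 0.122 for SCN8A and 0.954 for SCN3B. That SD was taken over all genes, changed ones included, so it cannot tell excess noise from real change. Against an absolute log2 change of 0.3 in place of 0, SCN2A, SCN3A and SCN8A still passed, and SCN9A and SCN3B did not.

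Per kilobase of the main transcript, the order of levels over both groups was SCN3B at 193, SCN9A at 67.7, SCN8A at 40.8, SCN3A at 35.1 and SCN2A at 14.1 mean normalised counts, from the authors' deposited table. The mean and the fold change together imply a level in each group, if the mean was taken over these 6 samples alone and with the fold change estimated without the shrinkage described under the processing. On that footing the authors' deposited table implies for SCN9A 55.0 normalised counts per kilobase with siPcif1 and 80.5 with siScram. For SCN8A it implies 58.4 with siPcif1 and 23.2 with siScram, for SCN3A 47.7 with siPcif1 and 22.5 with siScram, and for SCN2A 20.7 with siPcif1 and 7.52 with siScram, again from the authors' deposited table. In the direction used here, SCN9A thus stood beside SCN8A with siPcif1 and above the other alpha subunit members with siScram.

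Of the sum of these 4 alpha subunit genes per kilobase, SCN9A made up 30.2% with siPcif1 and 60.2% with siScram. SCN8A made up 32.1% with siPcif1 and 17.3% with siScram. The sum itself was 182 with siPcif1 and 134 with siScram, 1.36 times as high. If the direction is the one in the table's name, all these group values change places. SCN9A would then be at 80.5 with siPcif1 and 55.0 with siScram, and SCN8A at 23.2 with siPcif1 and 58.4 with siScram. The share of SCN9A would be 60.2% with siPcif1 and 30.2% with siScram, and the sum 134 with siPcif1 and 182 with siScram. These implied levels have no error of their own and were not tested; which neighbours in the order differ beyond their spread is not known. In bulk RNA, fewer cells with a transcript and less of it per cell cannot be told apart.

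**Figure D2:**
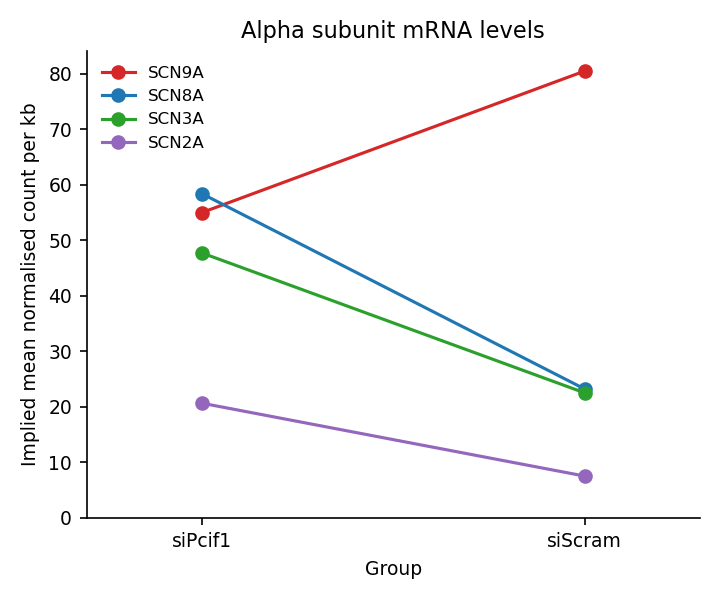
Implied mean normalised count per kilobase of main transcript (y axis) for SCN9A, SCN8A, SCN3A and SCN2A in the siPcif1 and siScram groups, without error bars because no value per library was analysed. The lines of SCN9A and SCN8A cross, with SCN9A at 55.0 and SCN8A at 58.4 with siPcif1 against 80.5 and 23.2 with siScram.

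The alpha subunit members are long genes. SCN8A spans 222599 bases, SCN2A 197318, SCN9A 180817 and SCN3A 116546, while SCN3B spans 26058. Among the protein-coding genes of the table, 93.1% were shorter than SCN8A and 82.9% shorter than SCN3A, but 41.6% shorter than SCN3B. Their main transcripts of 8660 to 11556 bases have 27 or 28 exons, and that of SCN3B has 6 exons. SCN2A, SCN3A and SCN9A have low GC content, at 39.8%, 39.2% and 38.7% of the main transcript, against 47.0% for SCN8A and 48.6% for SCN3B.

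Long genes as a whole were more often higher. Of the 2414 protein-coding genes of at least 100 kb, 27.7% rose and 9.15% fell by the authors' deposited table, against 14.6% and 21.4% of the 9376 shorter ones. The median log2 fold change of the long genes was 0.18 and that of the shorter ones -0.05 by the authors' deposited table. SCN2A, SCN3A and SCN8A lay above that median with their whole intervals, and SCN9A, a gene of like length and GC content to SCN2A, below it.

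With the trend of GC content, transcript length, gene length and mean count removed across all genes, SCN2A was at 0.90, SCN3A at 0.65 and SCN8A at 1.05 from the authors' deposited table. SCN9A was then at -0.86 and SCN3B at 0.38 from the authors' deposited table. All 5 still passed, with adjusted p under 0.05 from the DESeq2 values, against 12.4% of 13877 genes higher and 12.9% lower. The value of SCN9A moved away from 0 by that step and those of SCN2A, SCN3A and SCN8A towards it.

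**Figure D3:**
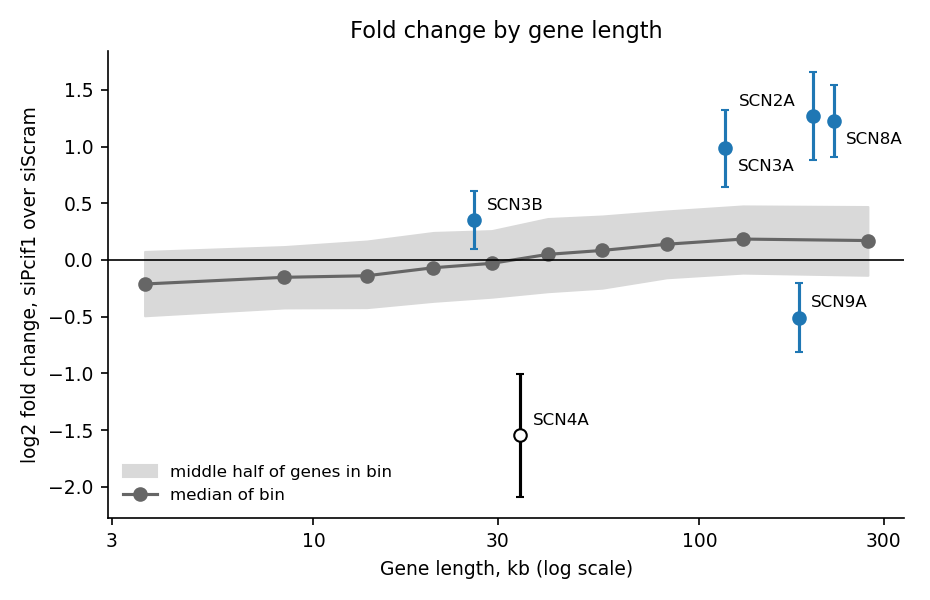
Log2 fold change of siPcif1 over siScram (y axis) against gene length in kb (x axis, log scale), with the median and interquartile range of protein-coding genes in bins of length; filled circles are members and the open circle SCN4A, with 95% intervals. SCN9A lies below the band of genes of its length, whereas SCN2A, SCN3A and SCN8A lie above theirs.

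SCN3A, SCN2A and SCN9A belong to one cluster on chromosome 2, together with SCN1A and SCN7A, which had no row and were not analysed here. SCN2A and SCN3A lie head to head on opposite strands, and their GENCODE spans overlap by 9075 bases. The RefSeq starts shown for SCN2A lie to the right of SCN3A, outside that overlap. The libraries mark strand, but how strand was set in counting is not stated, so how reads in that overlap were assigned is not known. An antisense gene, AC019197.1, covers the whole of SCN3A, and 13269 bases of SCN2A on its own strand, and another, AC010127.1, covers 106600 bases of SCN9A on the opposite strand. Neither had a row.

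Of the 4 tested genes within 1 Mb of these members that are no channel genes, 3 rose by the authors' deposited table, against 16.3% of all genes. CSRNP3, which encodes a nuclear protein of the cysteine-serine-rich family and lies 77.3 kb from SCN2A, was at 1.26 (SE 0.16) with a DESeq2 adjusted p of 1.16e-12 by the authors' deposited table. TTC21B, which encodes a protein of transport within the cilium, was at 0.79 (SE 0.22, DESeq2 adjusted p = 0.00163), and SLC38A11, a solute carrier gene, at 0.62 (SE 0.23, DESeq2 adjusted p = 0.0218) by the authors' deposited table. COBLL1, at the left edge, was at -0.19 (SE 0.27, DESeq2 adjusted p = 0.624) by the authors' deposited table. SCN9A therefore lay at the right edge of a run of tested genes that were higher, 241 kb from TTC21B, and was itself lower. With the trend of gene properties removed, CSRNP3 kept its call, and TTC21B, at an adjusted p of 0.0847 from the DESeq2 values, and SLC38A11, at 0.143, did not.

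**Figure D4:**
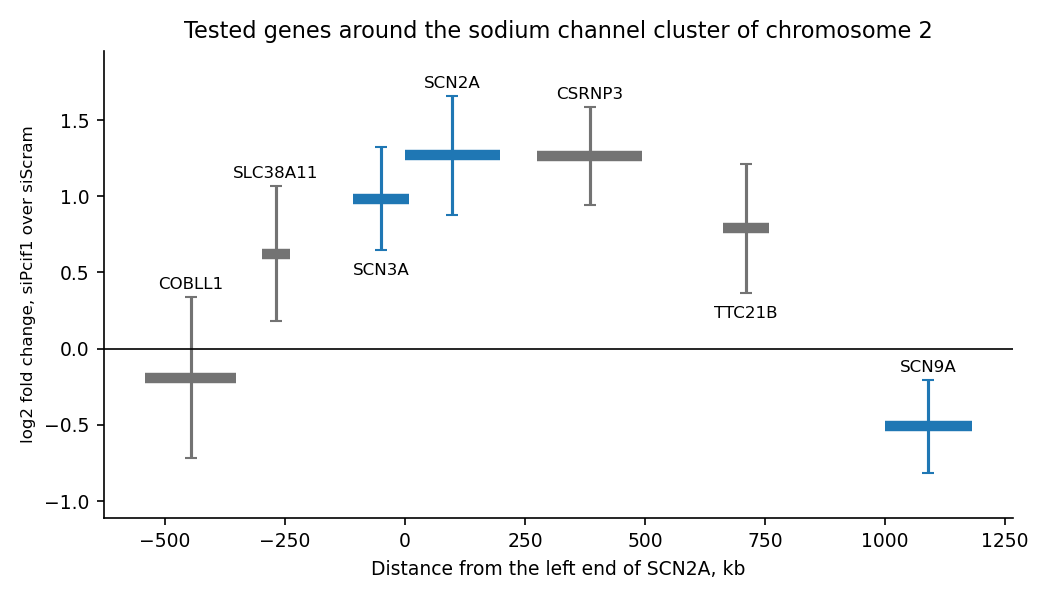
Log2 fold change of siPcif1 over siScram (y axis) of the tested genes around SCN2A, against distance in kb from the left end of SCN2A (x axis); thick lines span each gene and bars are 95% intervals from the SE. The neighbouring genes from SLC38A11 to TTC21B lie above 0, and SCN9A, on the right, below 0.

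Around the other members the neighbours were mixed. Within 1 Mb of SCN8A, 3 of 23 tested genes rose and 4 fell by the authors' deposited table, with a median of 0.10. One of them was SLC4A8, a sodium-driven bicarbonate transporter gene 74.5 kb to its left, at 1.09 (SE 0.15) with a DESeq2 adjusted p of 4.99e-12 by the authors' deposited table. The others called near SCN8A were DIP2B at 0.34 and ACVR1B at 0.46, which rose, and LETMD1 at -0.39, SMAGP at -0.48, GRASP at -0.67 and ATG101 at -0.81, which fell, by the authors' deposited table. FIGNL2, 4.98 kb to the right of SCN8A, was at 0.31 (SE 0.23, DESeq2 adjusted p = 0.295) by the authors' deposited table. Within 1 Mb of SCN3B, 2 of 6 tested genes rose and 0 fell by the authors' deposited table; they were SIAE at 1.19 and CLMP at 0.44. The nearest, GRAMD1B, a cholesterol transfer protein gene 1.41 kb away, was at 0.32 (SE 0.14, DESeq2 adjusted p = 0.0515) by the authors' deposited table and passed with the trend removed, at an adjusted p of 0.00276 from the DESeq2 values. ZNF202, on the other side, did not pass, at -0.14 (SE 0.17) by the authors' deposited table. Over all members with a row, 8 of 33 neighbours rose and 4 fell by the authors' deposited table, against 16.3% and 17.7% of all genes.

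SCN4A, the alpha subunit gene of skeletal muscle and outside the list, was at a low mean normalised count of 21.9 and a log2 fold change of -1.55 (SE 0.28) by the authors' deposited table, where the DESeq2 adjusted p was 7.2e-07. SCN4A thus fell, and 0 of 5 skeletal and heart muscle markers (MYH7, ACTN2, MYOG, TNNT2 and CKM) had a row. SCN4B, SCN10A and SCN11A were not analysed here.

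NALCN had no row, and all 4 of its partner genes rose by the authors' deposited table, against 16.3% of all genes. Of these 4 genes 3 are longer than 100 kb, a class in which 27.7% of protein-coding genes rose by the authors' deposited table. UNC80 and UNC79, large proteins of the channel complex, were at 0.51 (SE 0.15, DESeq2 adjusted p = 0.0037) and 0.48 (SE 0.14, DESeq2 adjusted p = 0.00225) by the authors' deposited table. FAM155A, now also named NALF1, which helps NALCN to the cell surface, was at 0.75 (SE 0.16, DESeq2 adjusted p = 3.18e-05) by the authors' deposited table, and its relative FAM155B at 0.89 (SE 0.21, DESeq2 adjusted p = 0.000146). The median of these 4 by the authors' deposited table was 0.63. FAM155A spans 703226 bases and UNC79 374658, and with the trend of gene properties removed UNC79 and FAM155B still passed, while UNC80 and FAM155A had adjusted p of 0.126 and 0.0775 from the DESeq2 values.

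Genes that hold sodium channels at the axon initial segment and the node rose in 4 of 10 cases and fell in 0 by the authors' deposited table, against 16.3% and 17.7% of all genes, with a median of 0.20. All 4 that rose are longer than 100 kb, where 27.7% of protein-coding genes rose by the authors' deposited table. CNTN1, a cell adhesion protein that binds channel beta subunits, was at 1.17 (SE 0.15, DESeq2 adjusted p = 1.03e-13) by the authors' deposited table. ANK3, the ankyrin that anchors sodium channels at the initial segment, was at 0.59 (SE 0.18, DESeq2 adjusted p = 0.00528) by the authors' deposited table, with ANK2 at 0.37 (SE 0.12) and the adhesion protein gene NRCAM at 0.32 (SE 0.13). With the trend removed, ANK3 was at 0.19, ANK2 at 0.19 and NRCAM at 0.28 from the authors' deposited table, and their adjusted p from the DESeq2 values were 0.494, 0.271 and 0.0898, so that CNTN1 was the 1 of these 4 genes that kept its call.

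Cytosolic partners and regulators of the alpha subunit were divided. Of 12 measured, 2 rose and 2 fell by the authors' deposited table, near the 16.3% and 17.7% of all genes, with a median of 0.04. NEDD4L, a ubiquitin ligase that takes sodium channels from the membrane, was at 0.64 (SE 0.16, DESeq2 adjusted p = 0.000361) by the authors' deposited table. The kinase gene FYN was at -0.38 (SE 0.13, DESeq2 adjusted p = 0.0162) by the authors' deposited table.

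Of 10 measured genes that keep the sodium gradient, 2 rose and 2 fell by the authors' deposited table, near the 16.3% and 17.7% of all genes, with a median of 0.01. ATP1B1, a beta subunit of the sodium pump, was at 0.99 (SE 0.19, DESeq2 adjusted p = 2.98e-06) and SLC8A1, a sodium-calcium exchanger gene, at 0.51 (SE 0.18, DESeq2 adjusted p = 0.019) by the authors' deposited table. SLC8A1 did not pass with the trend removed, at an adjusted p of 0.128 from the DESeq2 values. NKAIN1, a gene of a pump-interacting protein, was at -0.74 (SE 0.18, DESeq2 adjusted p = 0.000429) by the authors' deposited table.

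Among genes of other channel families that pass sodium, 3 of 10 rose and 0 fell by the authors' deposited table, against 16.3% and 17.7% of all genes. Their median was 0.23, and sodium flow through their products was not measured. ASIC1 and ASIC4, genes of the acid-sensing channel family, were at 1.32 (SE 0.21, DESeq2 adjusted p = 1.81e-08) and 1.00 (SE 0.16, DESeq2 adjusted p = 3.17e-08) by the authors' deposited table. TPCN1, a channel gene of endosomes and lysosomes, was at 0.74 (SE 0.21, DESeq2 adjusted p = 0.00211) by the authors' deposited table, while ASIC3 at 0.47 (SE 0.29) did not pass.

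REST, the repressor that keeps SCN2A and other neuronal genes silent outside neurons, was near the floor of the table. Its mean normalised count was 14.9, where the lowest gene had 7.01, and its log2 fold change -0.66 (SE 0.29) by the authors' deposited table missed the threshold at a DESeq2 adjusted p of 0.0604. With the trend removed REST was at -1.08 from the authors' deposited table and passed, its adjusted p from the DESeq2 values being 0.00174. Of 13 measured genes of REST and its corepressors 1 rose by the authors' deposited table, the histone deacetylase gene HDAC2 at 0.62 (SE 0.18, DESeq2 adjusted p = 0.00384), and 0 fell, against 16.3% and 17.7% of all genes. SIN3B and EHMT2, the other named members by smallest adjusted p, did not pass, at -0.38 and 0.31 by the authors' deposited table. With the trend removed HDAC2, at an adjusted p of 0.251 from the DESeq2 values, lost its call, and EHMT2, at 0.0113, passed.

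**Figure D5:**
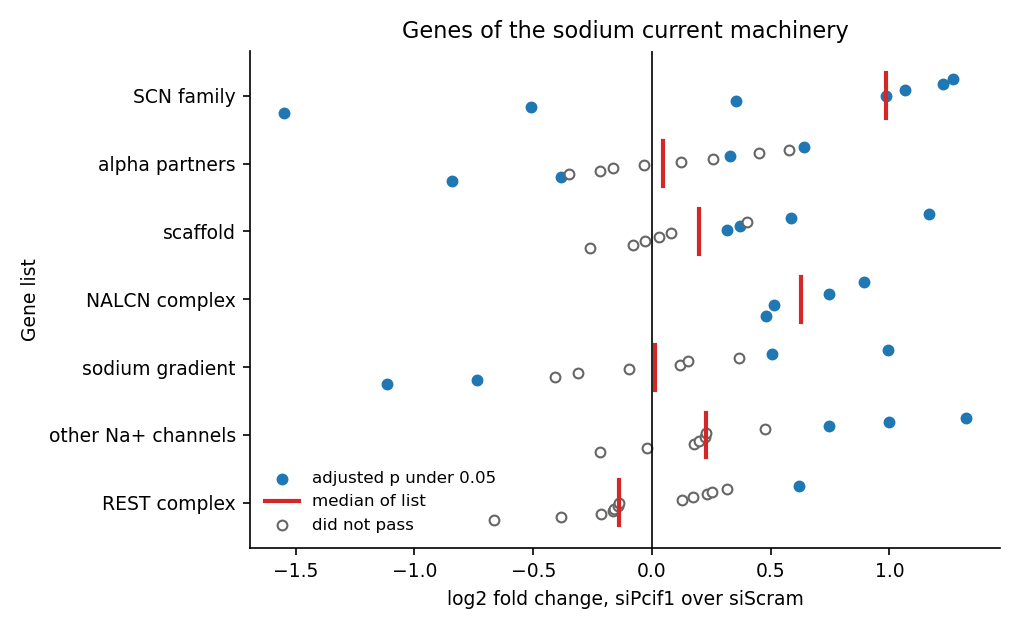
Log2 fold change of siPcif1 over siScram (x axis) of each measured gene of 7 lists (y axis); filled points passed an adjusted p of 0.05, open points did not, and red lines are list medians. All 4 genes of the NALCN complex lie above 0, while the sodium gradient list spreads to both sides of a median of 0.01.

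The cells carried the markers of their label. All 9 adrenergic neuroblastoma markers had a row, with mean normalised counts from 43.3 to 4718 by the authors' deposited table, and MYCN at 3078. Of these, 3 rose and 2 fell by the authors' deposited table, against 16.3% and 17.7% of all genes, MYCN being higher at 1.09 (SE 0.16). Of 5 Schwann and glial markers 3 had a row, with mean normalised counts of 10.1 to 150, and S100B rose, at 1.21 (SE 0.22) by the authors' deposited table. The 4 fibroblast markers with a row had mean normalised counts of 11.4 to 80.1 by the authors' deposited table and none passed, and 0 of 5 blood and immune markers had a row. The part of these shifts in the values of the channel genes was not tested.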

How the data were processed

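Poly(A)-selected, strand-specific libraries were made from DNase-treated RNA, per the labels' protocols. Tools named without roles in the submitters' processing notes are STAR 2.7.10a, HTSeq, DESeq2, deepTools, cutadapt 3.7 and bcl2fastq 2.20, with build hg38; no annotation or strand setting was stated. The authors deposited 1 table with a mean normalised count, a signal without depth per library, a log2 fold change and its SE on the log2 scale, a Wald statistic, which is a score, and a p-value and adjusted p-value. The authors' adjusted p-values equalled a Benjamini-Hochberg adjustment over the 13885 genes.

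SEs ran from 0.119 to 0.295, a pattern of shrinkage towards 0 under a normal prior, which the header does not state. Values without shrinkage were estimated with a prior SD of 0.59, 2 times the highest SE. They were 1.46 for SCN2A, 1.33 for SCN8A, 1.08 for SCN3A, -0.55 for SCN9A and 0.37 for SCN3B, computed from the authors' deposited table. Depth per library is unknown; precision is read from the SE.

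Symbols, spans and transcripts came from GENCODE 29 on GRCh38 (13877 of 13885 identifiers matched), main transcripts by APPRIS, basic tag, support level and length, and promoters from RefSeq on GRCh38.p14. The trend was a linear model with natural splines (4 degrees of freedom each). Members, lists and alternatives were chosen with earlier results of these data known. Named genes were the members, measured family genes, 4 genes per list by smallest adjusted p, called protein-coding neighbours within 1 Mb, PCIF1, PCF11 and the nearest tested gene on each side; the single markers given were added after their values were seen. Some genes that this rule names are not reported here. With 1 contrast, no likeness of pattern to other genes could be computed. Steps were tested on simulated data. Python 3.11.15, numpy 2.4.6, scipy 1.17.1, pandas 2.3.3, patsy 1.0.2 and matplotlib 3.10.9 were used.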

Additional observations from a re-analysis of the deposited data

How the results depend on the processing

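Across 8 alternatives, 32 of 40 values of the 5 members kept their side of the threshold. Some of these could not come out otherwise: those at a threshold of 0.1 and those without shrinkage. Centring and the removal of the trend, the alternatives that could turn a sign, turned none of the 5. With the Wald statistic divided by its robust SD, 0 members were higher and 0 lower, and the counts were also 0 and 0 for the 59 genes of the partner lists and 0 and 0 for the 33 neighbours; few genes of the whole table passed, 21 higher and 114 lower in place of 2263 and 2453. Against an absolute log2 change of 0.3, 0 members were lower, 6 partner genes higher and 2 lower, and 3 neighbours higher and 1 lower, with 663 and 813 genes in all. At an adjusted p of 0.01, SCN3B lost its call. Of the 33 neighbours 4 were then higher and 1 lower in place of 8 and 4, against 10.7% and 12.1% of all genes. At 0.1, 9 of the 59 partner genes were lower in place of 4, against 21.1% of all genes. With the trend of gene properties removed, 8 of the 59 partner genes and 1 of the 33 neighbours were lower, against 12.9% of all genes. The cause of these shifts was not tested. Restricting the table to mean counts of at least 100, centring and leaving out the shrinkage kept every member count. With the deposited fold change in the implied levels, an alternative chosen after seeing the data, SCN9A made up 31.1% with siPcif1 and 58.5% with siScram. No paired analysis was possible because the table holds no values per library, and leaving out a replicate could not be run for the same reason. Depth per library is unknown, and the 3 members with no row may be expressed below the floor of the table.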
